A study of Sus scrofa with 3 samples.

Results

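Transcript levels were measured for 52 genes that encode enzymes and regulators of glycolysis, pyruvate use and the citric acid cycle, out of 18730 genes in the table. The genes were chosen by function, from a list of 54, and not by their values, though earlier results of these data were known. Of the 52 genes, 50 were matched by the symbol in the table, and PKM and ALDOA by their Ensembl gene ID through a reference table of names. LDHB and MPC1 matched no row and were not analysed here. The samples were 3 RNA-seq libraries, named S1, S2 and S3, from pig spermatogonia enriched for SSEA4, a glycolipid of the cell surface that the study examined as a marker of spermatogonial stem cells. All came from pigs aged 90 days and form 1 group, with no treatment, transgene or second population analysed here. Breed, and whether each library had its own animal or shared a pool, are not given in the sources used here, so the p-values below measure the spread between libraries alone, which may be technical. Values are in FPKM, the fragments mapped to a gene scaled by its length and by the library's mapped fragments, so levels of different genes can be set side by side. The table's name says TPM instead, and ratios between genes of the same library are the same in either unit.

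Glycolysis splits glucose into pyruvate in the cytosol through 10 steps, several of which can be run by isoenzymes from different genes. Pyruvate is then either reduced to lactate by lactate dehydrogenase or carried into mitochondria, where the pyruvate dehydrogenase complex turns it into acetyl-CoA for the citric acid cycle. In the testis, Sertoli cells are known to supply lactate to germ cells, and several steps have isoenzymes that are known from later, meiotic and haploid, germ cells. Among these are PGK2, GAPDHS and LDHC.

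The labelled cell type was checked against marker genes. Of 10 germ cell genes, 9 lay above 1 FPKM, where 65.6% of all genes tested did, with DDX4, a germ cell RNA helicase, at 81.5 ± 3.18 FPKM (SD, n = 3) and STRA8, a gene of meiotic entry, lowest at 0.572 ± 0.22. Of 14 Sertoli cell genes, 10 lay above 1 FPKM, a share near that of all genes. The highest were CLU at 228 ± 100.1, VIM at 102 ± 32.9 and WT1 at 42.8 ± 2.5 FPKM, of which CLU and VIM are also made by many other cells. SOX9 at 15.2 ± 4.58, GATA4 at 11.5 ± 2.61 and INHA at 5.57 ± 3.30 FPKM came next and also lay above 1 FPKM. The 4 genes below 1 FPKM were FSHR, AMH, TF and DHH, at 0.573, 0.377, 0.260 and 0.0203. SOX9, GATA4, INHA, FSHR and AMH were named after their values were seen. The enzyme levels below are those of the sorted fraction as a whole. The values of each library summed to between 781871 and 859642, of which between 52.7% and 59.3% came from 13 mitochondrially encoded genes. Without counts in the table, the depth is unknown.

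Most of the enzymes were expressed above the level of 1 FPKM. Of the 52 genes, 48 lay above it (92.3%), against 65.6% of 17949 genes tested (limma on log2(FPKM + 1), Benjamini-Hochberg adjusted p under 0.05). The 4 others, PKLR, GAPDHS, PGAM2 and PGK2, lay below it (7.69%), against 28.5% of all genes. The highest adjusted p among the 48 was that of HK2 at 0.0187, followed by PDK4 at 0.00149. The median level was 17.6 FPKM over the 52 genes and 3.93 FPKM over all genes tested. A level of 100 FPKM or more was reached by 4 genes, GAPDH, PKM, LDHA and ALDOA, while 31 lay from 10 to under 100 FPKM and 13 from 1 to under 10 FPKM. When mitochondrially encoded genes and ribosomal protein genes were taken out and the rest rescaled upwards, 49 of the 52 lay above and 1 below. Over all genes that setting moved the share above to 74.5% of 17874 genes tested, against 65.6% as deposited, and 3255 genes lay below.

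Hexokinases, which phosphorylate glucose at entry, were represented mainly by HK1. HK1, the housekeeping form, had 38.6, 40.0 and 30.5 FPKM in S1, S2 and S3. HK2, the form known from insulin-sensitive and proliferating tissue, had 2.34, 2.05 and 1.12 FPKM, and HK3, known from myeloid cells, had 4.05, 3.09 and 4.24 FPKM. The lowest HK1 value was thus above the highest value of HK2 and of HK3. HK1 was 21.1 ± 5.52 times HK2 and 9.89 ± 2.89 times HK3 (SD, n = 3), and made up 86.5% ± 1.88 of the sum of the 3 genes. HK2 lay above 1 FPKM by 0.48 on the log2 scale (SE 0.14), and without S2 the difference was 0.41 at an adjusted p of 0.0520, so the call was lost with 2 libraries while the difference stayed close. Leukocyte genes, beside which HK3 is usually found, lay above 1 FPKM in 2 of 9 cases, against 65.6% of all genes tested. They summed to 28.0, 24.3 and 24.9 FPKM. CD74, of antigen presentation, at 17.0 ± 2.25 and the myeloid integrin gene ITGAM at 3.78 ± 0.579 were highest and called above. LYZ, the lysozyme gene, followed at 1.502 ± 0.518, and CD3E, of T cells, at 0.240 ± 0.0673 and CSF1R, of macrophages, at 0.227 ± 0.0271 were lowest. Their part in the HK3 level was not tested.

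Isoenzymes were compared in 23 pairs, each as the difference of log2(FPKM + 1) within a library. PDHA1 with PDHB, and IDH3A with IDH3B and with IDH3G, are pairs of subunits of 1 enzyme and are counted among these isoenzyme pairs. How often other pairs of genes keep their order over the libraries was not computed. In 21 of 23 pairs the same gene was higher in 3 of 3 libraries. With 3 libraries the exact two-sided sign-flip permutation test cannot give a p under 0.25, which these 21 pairs reached (adjusted p = 0.274 over the 23 pairs). The folds that follow therefore describe the libraries and pass no threshold.

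GPI, which turns glucose 6-phosphate into fructose 6-phosphate, had 71.3, 65.6 and 72.0 FPKM, among the steadier values of the pathway at a coefficient of variation (CV) of 5.05%. Phosphofructokinase, the committed step, was the only glycolytic step in which the leading gene took less than 60% of the sum in each library. PFKP, the platelet form, had 5.61, 5.61 and 6.38 FPKM. PFKL, the liver form, had 6.70, 6.52 and 9.65 FPKM. PFKM, the muscle form, had 15.2, 16.9 and 17.0 FPKM, 54.9% ± 3.38 of the sum. PFKP stood at 0.787 ± 0.109 of PFKL and 0.359 ± 0.0233 of PFKM, and PFKL at 0.465 ± 0.0933 of PFKM. PFKM was highest in every library, and the values of PFKP lay under those of PFKL in every library too.

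Aldolase, which cleaves fructose 1,6-bisphosphate, came mainly from ALDOA, at 151, 129 and 116 FPKM. ALDOC, the form known from brain, had 4.46, 4.11 and 3.63 FPKM. ALDOA was 32.5 ± 1.26 times ALDOC, a ratio that moved little between libraries although both genes were highest in S1 and lowest in S3. TPI1, which interconverts the triose phosphates, had 40.4, 40.3 and 33.1 FPKM.

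GAPDH, the glyceraldehyde 3-phosphate dehydrogenase of somatic tissue, had 199, 179 and 194 FPKM. GAPDHS, the sperm form, had 0.485, 0.414 and 0.376 FPKM and lay below 1 FPKM (limma, adjusted p = 5.43e-05), though it was not told apart from that level once the mitochondrially encoded and ribosomal genes were taken out. GAPDH was 453 ± 55.1 times GAPDHS. PGK1, the X-linked phosphoglycerate kinase, had 8.62, 7.25 and 3.85 FPKM. PGK2, its autosomal retrogene used by later germ cells, had 0.939, 0.682 and 0.799 FPKM. PGK1 was 8.21 ± 3.03 times PGK2, and their values did not overlap. PGK2 lay below 1 FPKM by a narrow margin, with a log2 difference of -0.15 (SE 0.06, limma adjusted p = 0.0457). Without S2 the adjusted p of PGK2 was 0.291 and without S3 it was 0.0674. Once mitochondrially encoded and ribosomal genes were taken out, PGK2 lay above the level instead, at 0.60.

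Both GAPDHS and PGK2 had their highest value in S1. Of 10 spermatid genes, 8 were also highest in S1, against 36.2% of all genes tested, and the list had a summed level of 104, 29.7 and 52.7 FPKM over the libraries S1 to S3, with the protamine gene PRM1 at 51.0, 1.53 and 11.01. Their part in the levels of GAPDHS and PGK2 was not tested.

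PGAM1, the phosphoglycerate mutase of most tissues, had 107, 93.6 and 94.0 FPKM. PGAM2, the muscle form, had 0.420, 0.350 and 0.570 FPKM and lay below 1 FPKM (limma, adjusted p = 0.000283), but was not told apart from it once the same genes were taken out. PGAM1 was 229 ± 56.2 times PGAM2. Skeletal muscle genes summed to 0.970, 0.714 and 0.545 FPKM. By limma 0 of 3 lay above 1 FPKM and all 3 below it, against 65.6% and 28.5% of all genes tested. The part of these muscle genes in the PGAM2 level was not tested. ENO1, the enolase of most tissues, had 78.6, 69.5 and 45.5 FPKM. ENO2, the neuronal form, had 14.9, 13.8 and 11.5 FPKM, and ENO3, the muscle form, had 4.29, 4.33 and 4.17 FPKM. ENO1 was 4.76 ± 0.697 times ENO2 and 15.1 ± 3.8 times ENO3, and each of the 3 genes kept its rank in every library. ENO3 was the steadiest glycolytic gene at or above 1 FPKM, with a CV of 1.97%.

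PKM, the pyruvate kinase of most tissues, had 227, 186 and 150.4 FPKM. PKLR, the form of liver and red cells, had 0.293, 0.304 and 0.274 FPKM (limma, adjusted p = 4.9e-06, below 1 FPKM). PKM was 645 ± 116 times PKLR. The table counts genes and not transcripts, so the M1 and M2 splice forms of PKM cannot be told apart. GAPDH and PKM were the highest of the 52 genes at 191 ± 10.03 and 188 ± 38.1 FPKM, and did not differ beyond their spread. GAPDH stood under PKM in S1 and S2 and over it in S3.

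**Figure D1:**
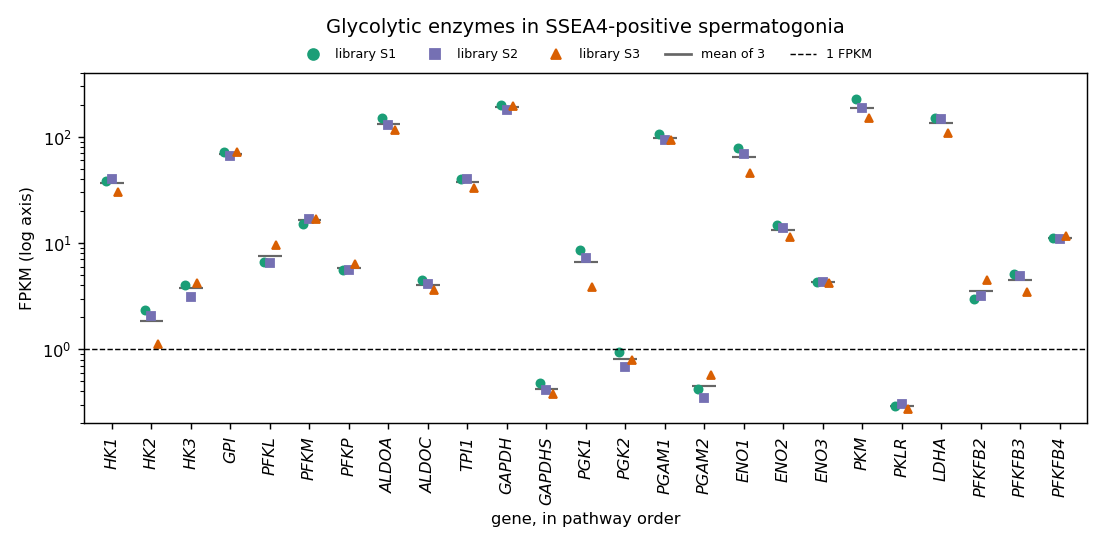
FPKM (log axis) of the measured genes of glycolysis, lactate dehydrogenase and 6-phosphofructo-2-kinase in pathway order; points are the 3 libraries, the short line is their mean and the dashed line is 1 FPKM. PKLR, GAPDHS, PGAM2 and PGK2 sit under the dashed line, and GAPDH, PKM, LDHA and ALDOA above 100 FPKM.

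Summed over the listed isoenzymes, the 10 steps differed by 25.9-fold. The glyceraldehyde 3-phosphate dehydrogenase step was highest at 191 ± 10.05 FPKM (SD, n = 3), followed by pyruvate kinase at 188 ± 38.1 and aldolase at 136 ± 17.9. Phosphoglycerate mutase stood at 98.8 ± 7.84, enolase at 82.2 ± 18.9 and glucose phosphate isomerase at 69.6 ± 3.52. Hexokinase at 42.0 ± 5.34, triosephosphate isomerase at 37.9 ± 4.19 and phosphofructokinase at 29.8 ± 2.86 came next. Phosphoglycerate kinase was lowest at 7.38 ± 2.50, or 3.86% of the step before it and 7.47% of the step after it. It was the lowest step in each of the libraries, at 9.56, 7.94 and 4.65 FPKM. In all 8 steps with more than 1 measured isoenzyme, the same gene led in 3 of 3 libraries. GAPDH, PGK1, LDHA and other glycolytic genes have retrocopies or pseudogenes in mammalian genomes. How reads shared with such copies were counted is not given in the sources used here, so the levels of these steps are uncertain for that reason.

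**Figure D2:**
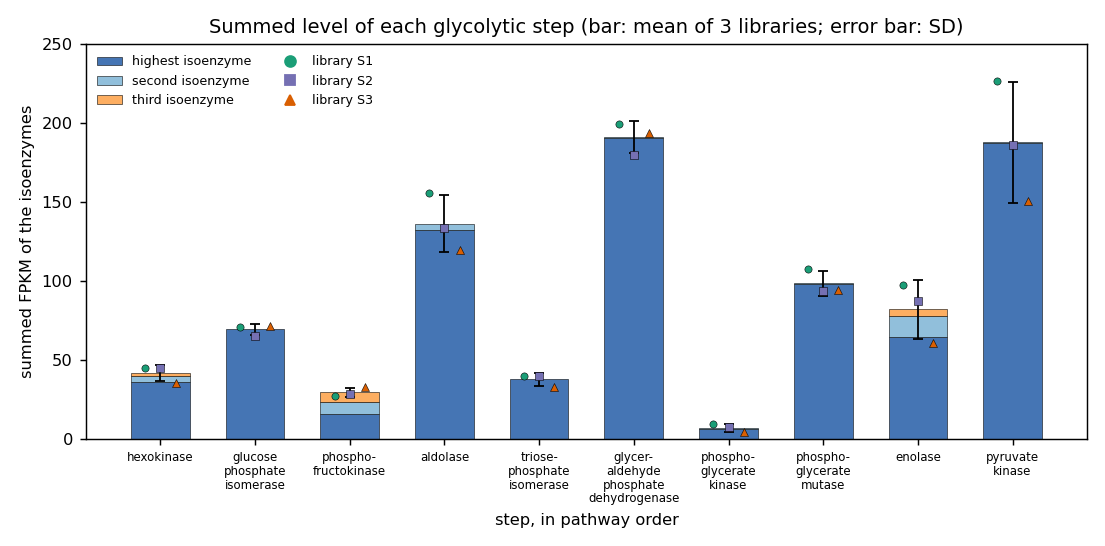
Summed FPKM of the isoenzymes of each glycolytic step; bars are means of 3 libraries divided by isoenzyme, error bars are SD and points are the libraries. Phosphoglycerate kinase, at 7.38 FPKM, stands between steps of 191 and 98.8 FPKM.

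LDHA, the lactate dehydrogenase subunit that favours lactate formation, had 150.4, 147 and 108 FPKM and was lowest in S3. LDHA was 12.5 ± 1.498 times LDHC, the germ cell subunit, which had 11.4, 10.9 and 10.1 FPKM and is no member of the list. Because LDHB was not analysed here, no balance between the main subunits can be given.

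The 6-phosphofructo-2-kinases make and break fructose 2,6-bisphosphate, the activator of phosphofructokinase. PFKFB3, the form with the strongest kinase activity, had 5.11, 4.88 and 3.48 FPKM. PFKFB2, the heart form, had 2.94, 3.17 and 4.52 FPKM. PFKFB4, first described as the testis form, had 11.2, 11.002 and 11.5 FPKM and made up 58.3% ± 0.636 of the sum of the 3 listed genes. PFKFB1, the liver and muscle form, is not in the list and was named after its values were seen. It had 4.26, 6.01 and 7.08 FPKM, above PFKFB2 in every library and above PFKFB3 in S2 and S3. PFKFB3 stood at 0.4 ± 0.0851 of PFKFB4 in 3 of 3 libraries. PFKFB3 against PFKFB2 was one of the 2 pairs without a constant order, higher in S1 and S2 and lower in S3, at a mean difference of 0.28 ± 0.50 on the log2 scale (p = 0.5 and adjusted p = 0.5 by the exact sign-flip permutation test). With PFKFB1 included, PFKFB4 was still the highest in every library and made up 45.0% ± 2.38 of the sum, which was 23.5, 25.1 and 26.6 FPKM. Without PFKFB1 the sum was 19.3, 19.1 and 19.5 FPKM.

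Pyruvate enters mitochondria through a carrier of MPC1 and MPC2. MPC2 had 22.8, 21.3 and 26.1 FPKM. MPC1L, a gene like MPC1 that is known from testis, had 8.77, 7.78 and 7.85 FPKM and was named after its values were seen.

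All 5 genes of the pyruvate dehydrogenase complex lay above 1 FPKM, where 65.6% of all genes tested did. Their median CV between libraries was 5.56%, against 9.34% for the 12340 genes that averaged 1 FPKM or more. DLD, the dihydrolipoamide dehydrogenase that is shared with other complexes, was highest at 78.6, 80.7 and 87.8 FPKM. PDHA1, the alpha subunit of the decarboxylase, had 57.6, 58.7 and 60.4 FPKM. PDHB, the beta subunit, had 17.1, 17.0 and 14.4 FPKM. PDHA1 was 3.67 ± 0.46 times PDHB in 3 of 3 libraries, although the subunits are known to join in equal numbers. PDHX, which binds DLD to the core, had 37.6, 35.4 and 38.6 FPKM, and DLAT, the core acetyltransferase, had 25.2, 24.3 and 27.1 FPKM. Transcript levels per length say nothing of the amount of protein.

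Of the kinases that switch the complex off, PDK1 led in each library with 24.6, 23.3 and 23.9 FPKM, 48.6% ± 1.88 of the sum of the 4 kinases. PDK2 had 11.8, 10.2 and 11.8 FPKM and PDK3 had 10.3, 10.7 and 14.1 FPKM, and their values overlapped. PDK4, known to be induced by fasting, was lowest at 2.69, 2.71 and 1.68 FPKM. PDK1 was 2.13 ± 0.129 times PDK2, 2.08 ± 0.352 times PDK3 and 10.7 ± 3.11 times PDK4. PDP1, the phosphatase that switches the complex on, had 14.5, 14.7 and 15.6 FPKM. PC, which carboxylates pyruvate to oxaloacetate, had 5.08, 5.39 and 5.06 FPKM.

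All 12 genes of the mitochondrial citric acid cycle lay above 1 FPKM, where 65.6% of all genes tested did, and their levels were close together. They ranged from 9.54 to 78.4 FPKM, an 8.21-fold span, against a 657-fold span over the 21 glycolytic genes. The glycolytic list holds minor isoenzymes of the same step, down to PKLR at 0.290 FPKM, and its summed steps spanned 25.9-fold. Of the cycle genes, CS, the citrate synthase that opens the cycle, was highest at 81.0, 75.4 and 78.9 FPKM. FH, the fumarase, was lowest at 9.72, 9.65 and 9.27 FPKM and stayed under the other 11 in every library. Of the 12 genes, 9 had a CV under that median of 9.34%, against 6 of 17 glycolytic genes.

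NAD-dependent isocitrate dehydrogenase is built from IDH3A, IDH3B and IDH3G. IDH3A, the catalytic alpha subunit, had 16.1, 15.1 and 16.6 FPKM. IDH3B had 35.3, 34.3 and 38.0 FPKM, and IDH3G had 46.7, 42.1 and 54.3 FPKM. IDH3A stood at 0.445 ± 0.00938 of IDH3B and 0.337 ± 0.0273 of IDH3G, whereas the enzyme is known to hold more alpha than beta or gamma subunits. OGDH and DLST, of the 2-oxoglutarate dehydrogenase complex, stood at 31.1 ± 3.04 and 23.5 ± 0.93 FPKM.

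Succinyl-CoA ligase joins SUCLG1 to either SUCLG2, which makes GTP, or SUCLA2, which makes ATP. SUCLG2 had 42.1, 37.5 and 55.8 FPKM. SUCLA2 had 51.5, 48.5 and 52.5 FPKM. SUCLG2 was lower in S1 and S2 and higher in S3, and at a mean difference of -0.19 ± 0.24 on the log2 scale it was the other pair without a constant order (p = 0.5 and adjusted p = 0.5 by the exact sign-flip permutation test). SUCLG1, the shared subunit, had 57.3, 55.3 and 57.8 FPKM.

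**Figure D3:**
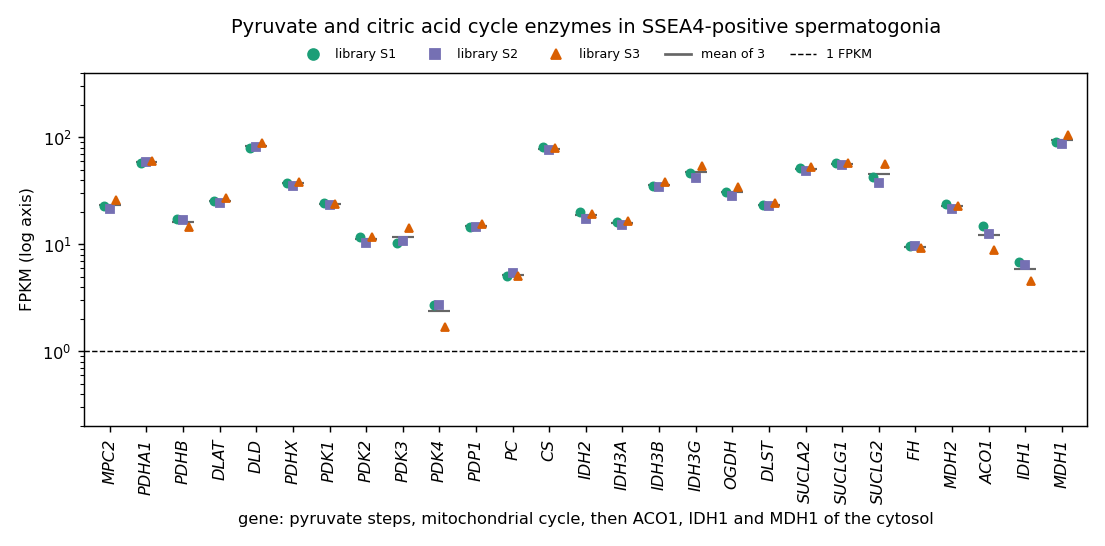
FPKM (log axis) of the genes of pyruvate import, the pyruvate dehydrogenase complex and its regulators, the mitochondrial cycle and the cytosolic forms ACO1, IDH1 and MDH1; points are the 3 libraries, the short line is their mean and the dashed line is 1 FPKM. The 12 mitochondrial cycle genes lie between 9.54 and 78.4 FPKM, and PDK4 is lowest at 2.36 FPKM.

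Cytosolic and mitochondrial forms of the same reaction were ordered differently in different reactions. MDH1, the cytosolic malate dehydrogenase, had 90.3, 86.3 and 105 FPKM. MDH2, the mitochondrial form, had 23.7, 21.2 and 23.0 FPKM. MDH1 was 4.16 ± 0.389 times MDH2, higher in 3 of 3 libraries. For NADP-dependent isocitrate dehydrogenase the order was the opposite. IDH1, found in cytosol and peroxisomes, had 6.78, 6.37 and 4.59 FPKM, and IDH2, in mitochondria, had 19.8, 17.3 and 19.4 FPKM. IDH1 stood at 0.315 ± 0.069 of IDH2, lower in 3 of 3 libraries. ACO1, the cytosolic aconitase that doubles as an iron sensor, had 14.9, 12.5 and 8.86 FPKM and was lowest in S3.

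Taken gene by gene, the mean level of the listed glycolytic genes lay under that of the mitochondrial cycle. The 21 glycolytic genes cover 10 steps and count minor isoenzymes, such as PKLR and GAPDHS, as much as leading ones. The difference therefore depends on the isoenzymes listed and does not rank the pathways. The mean log2(FPKM + 1) over 21 glycolytic genes was 3.85, 3.75 and 3.66 in S1, S2 and S3, and that over 12 cycle genes was 5.02, 4.92 and 5.09. The difference was -1.26 ± 0.15 (SD, n = 3), lower in 3 of 3 libraries, and -0.71 when genes with a mean under 0.5 FPKM were left out. The median over all genes tested was 2.30 on the same scale. By summed FPKM the order was the reverse, at 883 ± 91.8 for glycolysis and 436 ± 28.4 for the cycle. Of the glycolytic genes, 4 lay under 1 FPKM, 9 from 1 to under 20, 5 from 20 to under 100 and 3 at 100 FPKM or more, while 9 of the 12 cycle genes lay from 20 to under 100.

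Library S3 differed from S1 and S2 in several of these enzymes. Rescaling to 1000000 moved the median difference of S3 over genes averaging 1 FPKM or more to 0.17 on the log2 scale, and removing mitochondrial and ribosomal protein genes moved it to -0.14, against 0.05 as deposited. Differences are therefore given relative to that median, in 4 scalings. Rescaling to 1000000 and removing those genes each multiply a library by 1 factor. Subtracting the median cancels that factor, nearly so because of the 1 added before the logarithm. Agreement of these relative differences with those as deposited was therefore largely fixed in advance, and only quantile normalization changes the values otherwise. PGK1 was 3.85 FPKM in S3, against 8.62 in S1 and 7.25 in S2, a relative difference of -0.93. ENO1 was 45.5 FPKM in S3, against 78.6 and 69.5 in S1 and S2, at -0.74. HK2, at -0.64, and ACO1, at -0.63, followed. These 4 were also the genes that were lower in S3 by at least 0.5 on the log2 scale as deposited, 4 of 48 or 8.33%, against 3.87% of 12340 genes. None of the 48 was higher by as much, against 2.22% of all genes. In S1, PGK1 alone of the 48 was higher by 0.5 or more, against 1.99% of all genes, and 0 of 48 were lower, against 0.389%. In S2, 0 of 48 were lower, against 0.689% of all genes, and 0 were higher, against 0.478%. LDHA stood at -0.51, PKM at -0.50 and IDH1 at -0.49, while GAPDH stood at -0.02 and GPI at 0.02.

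On the other side, PFKL was 9.65 FPKM in S3, against 6.70 in S1 and 6.52 in S2, a relative difference of 0.43. SUCLG2, at 0.43, PFKFB2, at 0.39, and PDK3, at 0.34, followed. In all 4 scalings, 24 of 48 genes were lower in S3 relative to all genes and 17 were higher, against 45.1% lower and 45.1% higher among 12266 genes. These included 12 lower and 4 higher of 17 glycolytic genes, and 4 lower and 5 higher of 12 mitochondrial cycle genes. By quantile normalization alone, 30 of the 48 genes were lower relative to all genes, against 6109 of 12266. Among them were 13 of 17 glycolytic genes and 7 of 12 mitochondrial cycle genes. S3 was the lowest library as deposited for 18 of the 48 genes, or 37.5%, against 33.1% of all genes, and the highest for 24, or 50.0%, against 50.0%. These counts moved with the scaling. With mitochondrially encoded and ribosomal genes taken out, S3 was lowest for 38 of 48 (79.2%, against 65.4% of all genes) and highest for 7 (14.6%, against 20.5%). After rescaling to 1000000 it was lowest for 15 (31.2%, against 19.0%) and highest for 32 (66.7%, against 69.1%). With quantile normalization it was lowest for 25 (52.1%, against 38.5%) and highest for 16 (33.3%, against 45.0%). One library set against the others has no replicate, so no test was made.

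Marker genes were summed in the same libraries. Of all genes tested, 33.9% were lowest and 45.2% highest in S3. The 14 Sertoli cell genes summed to 264 FPKM in S3, against 553 in S1 and 433 in S2, and 9 of them were lowest in S3. The 7 Leydig cell genes summed to 9.3 FPKM in S3, against 20.7 and 17.4, with 5 lowest in S3 and the receptor gene LHCGR listed at 0 in S3 and S1. The 12 peritubular and fibroblast genes summed to 88.2 FPKM in S3, against 131 and 102, and the 6 endothelial genes to 16.8, against 21.7 and 20.6. The 9 leukocyte genes summed to 24.9 FPKM in S3, against 28.0 and 24.3, and the 10 spermatid genes to 52.7, against 104 and 29.7. The 3 erythroid genes summed to 3.59 FPKM in S3, against 4.84 and 3.88. The 10 germ cell genes summed to 339 FPKM in S3, against 264 and 253, and 6 of them were highest there. Without NANOS3, a germ cell gene that had 98.1 FPKM in S3 against 50.04 and 43.7, the other 9 summed to 241 in S3, against 214 and 209.8. Their part in the enzyme levels was not tested. In bulk libraries, fewer cells of a type and less RNA per cell cannot be told apart.

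**Figure D4:**
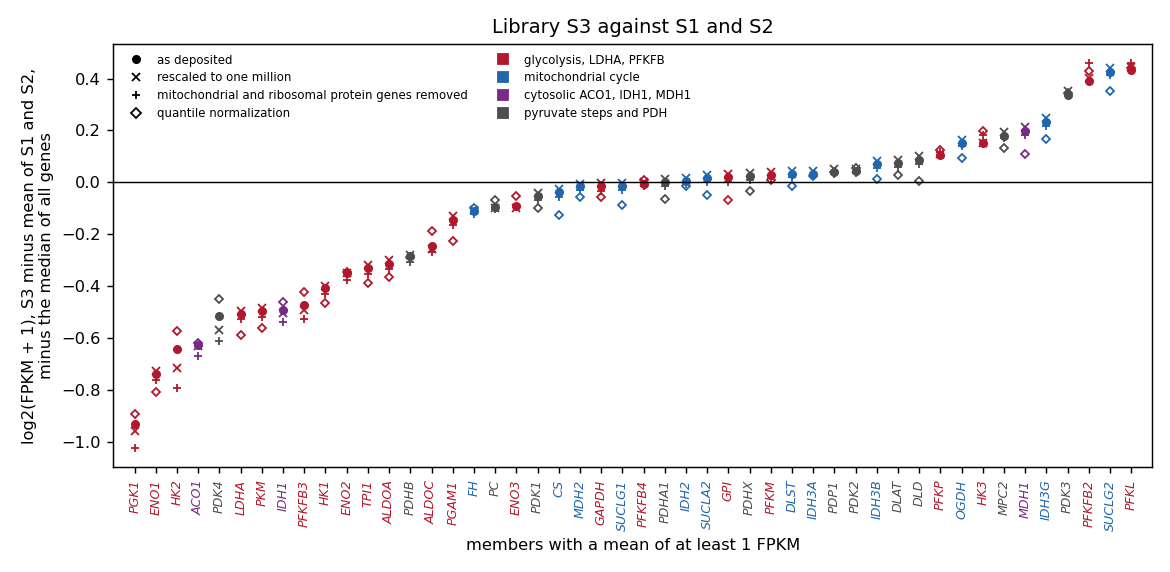
Difference of log2(FPKM + 1) of library S3 from the mean of S1 and S2, minus the median of all genes, for the 48 genes averaging 1 FPKM or more; each symbol is 1 of 4 scalings and colours mark the pathway. PGK1 is farthest below 0 at -0.93 as deposited and PFKL farthest above at 0.43.

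Other genes of carbon metabolism, from lists fixed by function, were counted with the same test. Of 70 with a usable row among 78, 59 lay above 1 FPKM (84.3%, against 65.6% of all genes). A further 7 were below it, and 4 could not be told apart from it. The highest by far belonged to the pentose phosphate list. TKTL1, a transketolase-like protein, had 948, 909 and 975 FPKM, above the level of 99.8% of the genes tested. It was 54.5 ± 6.07 times TKT, the transketolase of most tissues, which had 18.9, 17.5 and 15.9 FPKM, and 4.96 ± 0.164 times GAPDH. TKT was named after its values were seen. The lactonase gene PGLS stood at 78.3 ± 18.1 FPKM, the dehydrogenase PGD at 72.6 ± 4.25 and the isomerase RPIA at 67.8 ± 6.61. Lowest in that list were TALDO1, the transaldolase, at 6.84 ± 0.82 and TKTL2 at 1.13 ± 0.226, which was not told apart from 1 FPKM.

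Of 13 other genes of the cycle and of pyruvate use, 12 lay above 1 FPKM and 1 below. Of all genes tested, 65.6% lay above and 28.5% below. The succinate dehydrogenase subunits SDHA and SDHB stood at 40.9 ± 2.2 and 40.2 ± 4.47 FPKM, with SDHD at 21.1 ± 1.09 and SDHC at 11.7 ± 0.58. LIAS, which makes the lipoyl cofactor, stood at 26.5 ± 0.942 and BCKDHA, of branched-chain keto acid breakdown, at 23.7 ± 3.81. LIPT2, of the same cofactor pathway, at 2.60 ± 0.769 and BCKDHB, the partner subunit of BCKDHA, at 0.781 ± 0.151 were lowest. OGDHL, a relative of OGDH named after its values were seen, had 22.3, 22.3 and 24.0 FPKM, and OGDH was 1.36 ± 0.0855 times OGDHL.

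Of 9 other glycolytic genes, 7 lay above 1 FPKM and 2 below, against 65.6% and 28.5% of all genes tested. PGAM5, a mitochondrial phosphatase of the mutase family, stood at 17.1 ± 1.6 FPKM, LDHC at 10.8 ± 0.676, BPGM, the bisphosphoglycerate mutase, at 9.9 ± 0.645 and ADPGK, which phosphorylates glucose with ADP, at 9.38 ± 0.663. HKDC1, a hexokinase-like protein, at 0.413 ± 0.0548 and LDHD, of D-lactate, at 0.0256 ± 0.00583 were lowest. Of 12 genes of gluconeogenesis and glycogen, 8 lay above and 4 below, shares near the 65.6% and 28.5% of all genes tested. UGP2, which makes UDP-glucose, stood at 74.9 ± 1.02 FPKM, the glycogen phosphorylases PYGB and PYGL at 39.6 ± 3 and 6.15 ± 0.341 and PGM2 at 16.6 ± 2.86. PYGM, the muscle phosphorylase, at 0.411 ± 0.025 and PCK1, the cytosolic gluconeogenic kinase, at 0.113 ± 0.0203 were lowest.

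**Figure D5:**
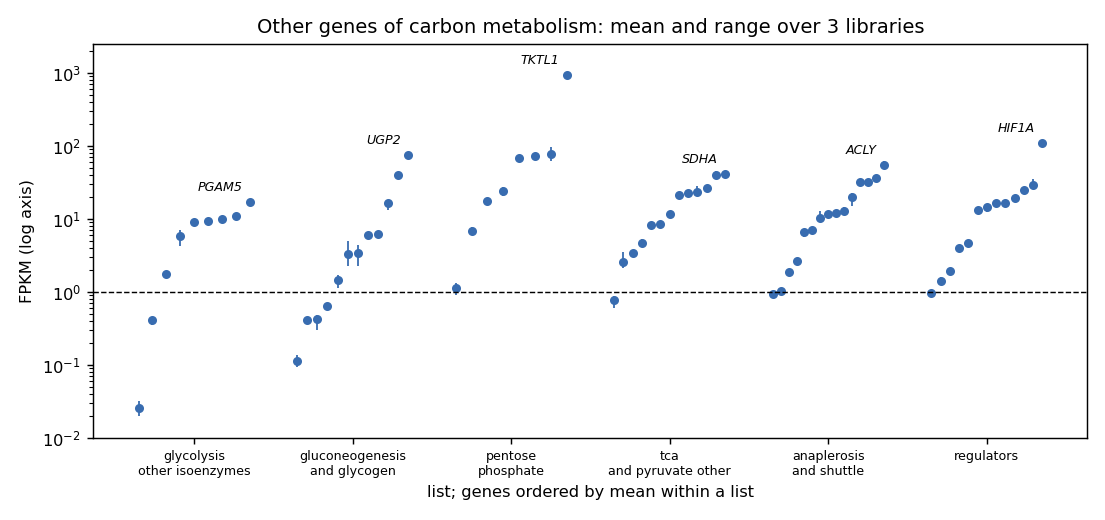
Mean FPKM (log axis, points) and range over 3 libraries (bars) of 70 other genes of carbon metabolism in 6 lists, ordered by mean within each list and labelled with the highest gene; the dashed line is 1 FPKM. TKTL1, at 944 FPKM, stands above all others.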

How the data were processed

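The deposited values are FPKM per Ensembl gene. Per the labels' protocols, libraries were rRNA-depleted and directional, and 150 bp read pairs were processed with cutadapt 1.9.3 (trimming), HISAT2 2.0.4 (alignment to susScr3) and Cuffdiff (FPKM). The submitters' processing notes also name Sscrofa11.1, so no coordinates are given. Columns S1 to S3 do not match the sample titles singly and were used as libraries of 1 group. Members and lists were chosen with earlier results of these data known.

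In 170 genes values under 1e-06 were set to 0, and 781 genes at 0 throughout were left out. The remaining 17949 were tested as log2(FPKM + 1), which understates changes of low genes, against 1 FPKM with limma 3.58.1 in R 4.3.3 (intercept only, eBayes with trend, two-sided, Benjamini-Hochberg threshold 0.05), after a check on simulated data. Rows whose table and reference symbols differ were left out of lists. Isoenzyme pairs were tested by exact two-sided sign-flip permutation. All members were named. From other lists of carbon metabolism the 4 highest and 2 lowest genes were named, with LDHC and the SDH subunits, and from marker lists the 3 highest and 2 lowest, of which only those beside a result are printed. Some genes of the lists are not reported here. Alternatives were a pseudocount of 0.1, a mean of at least 0.5 FPKM, a level of 5 FPKM, 3 other scalings, medians and leaving out each library. Matching by table symbol alone, the relative differences of S3, the sum over all measured 6-phosphofructo-2-kinases and the germ cell sum without NANOS3 were added after the data were seen.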

Additional observations from a re-analysis of the deposited data

How the results depend on the processing

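No paired analysis was possible because all 3 libraries belong to 1 group. Leaving out S1, S2 or S3 gave 47 to 48 members above and 3 to 4 below 1 FPKM, and glycolysis minus the mitochondrial cycle at -1.30 to -1.17. Between 21 and 23 isoenzyme pairs then had a constant order. That count could only stay or rise, since fewer libraries had to share the order. Without mitochondrial and ribosomal protein genes, 3255 genes and 1 member lay below, since the rest were rescaled upwards. GAPDHS, PGAM2 and PGK2 then had log2 differences of 0.0559, 0.0815 and 0.60. When genes averaging under 0.5 FPKM were left out, 798 genes and 0 members lay below by limma (0 at an unadjusted p under 0.05), and PGK2 had an adjusted p of 0.0693. That filter itself took out PKLR, GAPDHS and PGAM2, at means of 0.290, 0.425 and 0.447 FPKM. Of the members called below, only PGK2 could then still be called, so the count does not bear on the others. PGK2 was also not told apart at a pseudocount of 0.1 (adjusted p = 0.0724) or after rescaling to 1000000 (0.723). At 5 FPKM, 7632 genes lay above, 9130 genes and 10 members lay below, and HK2 (-1.11), PDK4 (-0.85), PFKFB2 (-0.42), HK3 (-0.33), ALDOC (-0.25), ENO3 (-0.19) and PFKFB3 (-0.14) turned negative. Glycolysis minus the cycle was -0.71 with the filter, -1.86 by medians, -1.44 without mitochondrial and ribosomal protein genes, -1.59 at a pseudocount of 0.1 and -1.63 without PKM and ALDOA. Isoenzyme pairs reversed under none of the alternatives run. The unknown depth limits the low values most.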

Other observations

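Regulators of these pathways and genes that feed the cycle were counted with the same limma test. Of 13 regulators, 12 lay above 1 FPKM, against 65.6% of all genes tested, and 1 was not told apart. HIF1A, the hypoxia-inducible factor subunit whose protein is known to be controlled mainly by breakdown, had 113, 108 and 109 FPKM, and its partner ARNT stood at 29.5 ± 4.64 FPKM (SD, n = 3). EGLN1, a prolyl hydroxylase that marks HIF1A for breakdown, stood at 25.0 ± 2.66, and EGLN3, of the same family, at 0.95 ± 0.0554. TFAM, a factor of mitochondrial DNA, stood at 19.1 ± 1.61, and ESRRA, a nuclear receptor of mitochondrial genes, at 1.41 ± 0.146.

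Of 15 genes of anaplerosis and redox shuttles, 13 lay above 1 FPKM, against 65.6% of all genes tested, and 2 were not told apart. ACLY, which returns citrate carbon to cytosolic acetyl-CoA, was highest at 53.9, 50.1 and 61.5 FPKM. ME2, a mitochondrial malic enzyme, stood at 36.2 ± 2.14, GOT2, the mitochondrial aspartate aminotransferase, at 31.9 ± 2.59 and SLC25A1, the citrate carrier, at 31.6 ± 2.39. GPD1, the cytosolic glycerol phosphate dehydrogenase, at 1.01 ± 0.0748 and SLC25A11, the oxoglutarate carrier, at 0.929 ± 0.085 were lowest.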
